A study of Mus musculus with 3 samples.

Results

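The genes described here make, check and ship secreted and membrane proteins in the endoplasmic reticulum (ER), or report on stress there. They are 38 of the 32285 genes in the count tables, taken from a fixed list of gene symbols and not by a cut on their values: 15 chaperones and folding enzymes, 3 genes of ER-associated degradation, 9 genes of translocation and secretory transport, 7 stress sensors and transcription factors, and 4 targets of the transcription factor ATF4, namely Asns, Chac1, Trib3 and Ddit3. These genes were chosen with earlier results of these data known. The question was how they were distributed over epiblast-like (Epi) and visceral endoderm-like (VE) cells that were grown together or apart.

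All cells came from mouse embryonic stem cells of the E14tg2a line that carry a doxycycline-inducible GATA4 transgene (iGATA). Bilayered embryo-like aggregates (BELAs) were made from clone C6, which received 0.5 µg/ml doxycycline for 8 h in 2i + LIF, then N2B27 medium, and 3 days of culture from 30000 cells per cm2. VE cysts came from the same clone and dose, with another 16 h of doxycycline in N2B27, where FGF4 (10 ng/ml) and heparin (1 µg/ml) were present and stayed for the next 3 days. Epi cysts were iGATA cells grown in matrigel, with 3 days in N2B27 and no doxycycline step in the labels. BELAs and VE cysts were picked by hand, and VE cysts with a visible Epi core were set aside, so the makeup of those libraries was partly chosen. The BELAs and VE cysts stand for 1 clone. Each condition was a single 10x Genomics 3′ library. Library, medium, matrigel, doxycycline, FGF4 and condition therefore cannot be told apart, and no test between conditions was possible.

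Cells with at least 4000 genes and at most 10% mitochondrial unique molecular identifiers (UMIs) were kept, which left 1410 of 2220 BELA barcodes, 657 of 1076 Epi cyst barcodes and 625 of 881 VE cyst barcodes. A cell was called VE where the UMIs of Gata6, Sox17, Dab2 and Cubn together exceeded those of Pou5f1, Sox2, Nanog and Fgf4, and Epi otherwise. BELAs thus gave 542 VE and 868 Epi cells, VE cysts 577 VE and 48 Epi cells, and Epi cysts 656 Epi cells and 1 VE cell that was not used. Median UMIs per cell ran from 56914 in VE cells of VE cysts to 90251 in VE cells of BELAs, and no kept barcode was shared between libraries. Levels are UMIs of a gene divided by all UMIs of the group and scaled to counts per 1e6 (CPM). These are shares of the RNA counted, so a higher share in one group cannot be told from less of other RNA, and 3′ UMI counts are not scaled by gene length. Intervals are exact 95% intervals that cover counting error alone.

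Proteins that enter the ER pass through the SEC61 channel and are folded by chaperones such as BiP (Hspa5), GRP94 (Hsp90b1) and the lectins calreticulin and calnexin, while protein disulfide isomerases join their cysteines. COPII coats carry folded cargo to the Golgi, KDEL receptors return escaped chaperones, and misfolded chains are pulled out for degradation. When folding falls behind, the sensors IRE1 (Ern1), ATF6 and PERK (Eif2ak3) raise this machinery through spliced XBP1 and cleaved ATF6, and PERK raises translation of Atf4. ATF4 also answers amino acid shortage through GCN2, and its targets include amino acid synthesis genes. Visceral and parietal endoderm of the mouse are secretory tissues that make serum proteins and basement membrane.

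Promoters of several of these genes carry known response elements, and a few are shown because their elements are those bound by the factors on the list. RefSeq promoter windows (GRCm38.p6, 250 bases before to 50 after the start site) were at hand for 32 of the 38 genes and searched on both strands. The ER stress response element, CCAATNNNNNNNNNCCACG, was in 7 of the 13 chaperone and folding gene windows (Hspa5, Hsp90b1, Calr, Canx, Pdia6, Dnajc3 and Creld2) and in 0.119% of all 32851 promoters. No window of the other groups held it, which says only that these letters are not there. Below, the element is in capitals, on the strand of the gene, and reads as its reverse complement in Calr and in the copy of Hsp90b1 shown, the nearer to the start of its 2.
Hspa5, chr2:34772020-34772048, plus strand: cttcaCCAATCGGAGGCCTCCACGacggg
Hsp90b1, chr10:86705513-86705571, minus strand: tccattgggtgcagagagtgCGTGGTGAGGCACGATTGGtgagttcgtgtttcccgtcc
Calr, chr8:84847055-84847113, minus strand: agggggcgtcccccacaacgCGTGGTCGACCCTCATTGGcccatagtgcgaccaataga
Dnajc3, chr14:118937807-118937865, plus strand: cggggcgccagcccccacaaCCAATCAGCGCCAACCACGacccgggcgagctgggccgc

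The shorter element ERSE-II, ATTGGNCCACG, was in the windows of Dnajb11 and Herpud1 and in 0.0365% of all promoters. The core TGACGTGG of the unfolded protein response element, which shares its CCACG end with the elements above, was in Kdelr3, Sec23a and Sec24d, which are 3 of 7 transport gene windows, and in 0.676% of all promoters. The CARE element bound by ATF4 with C/EBP partners, TGATGNAA, was in Asns, Chac1 and Trib3 but not in the window of Ddit3, also in Herpud1 and Kdelr1, and in 3.97% of all promoters. Capitals again mark the element, reversed in Kdelr3 and Chac1. The windows of Hspa5, Sec24d and Asns are short because the gene models of GENCODE vM21 begin upstream of the RefSeq start.
Herpud1, ERSE-II, chr8:94386357-94386407, plus strand: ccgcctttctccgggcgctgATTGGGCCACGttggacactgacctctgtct
Kdelr3, UPRE core, chr15:79516358-79516405, plus strand: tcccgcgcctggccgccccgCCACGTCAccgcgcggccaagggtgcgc
Sec24d, UPRE core, chr3:123267465-123267482, plus strand: gcgccTGACGTGGcacta
Asns, CARE, chr6:7693220-7693237, minus strand: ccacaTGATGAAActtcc
Chac1, CARE, chr2:119351029-119351076, plus strand: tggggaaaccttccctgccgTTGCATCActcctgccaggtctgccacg

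The folding and secretory genes were higher in VE than in Epi cells in both libraries that held the 2 lineages, and the ATF4 targets summed together were not. Together, the 34 genes other than ATF4 targets took 0.806% of UMIs in VE cells of BELAs and 1.00% in VE cells of VE cysts, against 0.369% in Epi cells of BELAs, 0.407% in those of Epi cysts and 0.403% in those of VE cysts. The 4 ATF4 targets took 0.0143% and 0.00878% in the VE groups and 0.0184%, 0.0191% and 0.00987% in the Epi groups, given in the same order. Within BELAs, 21 of the 38 genes were at least 2-fold higher in VE cells with 5 CPM added to each level, against 15.2% of the 7903 genes with a mean of at least 10 CPM. Chac1 alone was at least 2-fold lower, against 8.33% of those genes. Chac1, Ern1 and Eif2ak3 are counted among the 38 but are not among the 7903, with means of 8.50, 2.57 and 7.83 CPM. Within VE cysts, 22 were at least 2-fold higher (20.9% of genes) and 0 lower (11.8%), and 18 genes were at least 2-fold higher in both libraries, against 13.7% of genes, none of them an ATF4 target. The median log2 ratio of VE over Epi cells within BELAs was 1.05 for the chaperones, 1.05 for ER-associated degradation, 1.08 for translocation and transport, 1.23 for sensors and factors and -0.48 for the ATF4 targets, beside -0.04 for all 7903 genes.

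**Figure D1:**
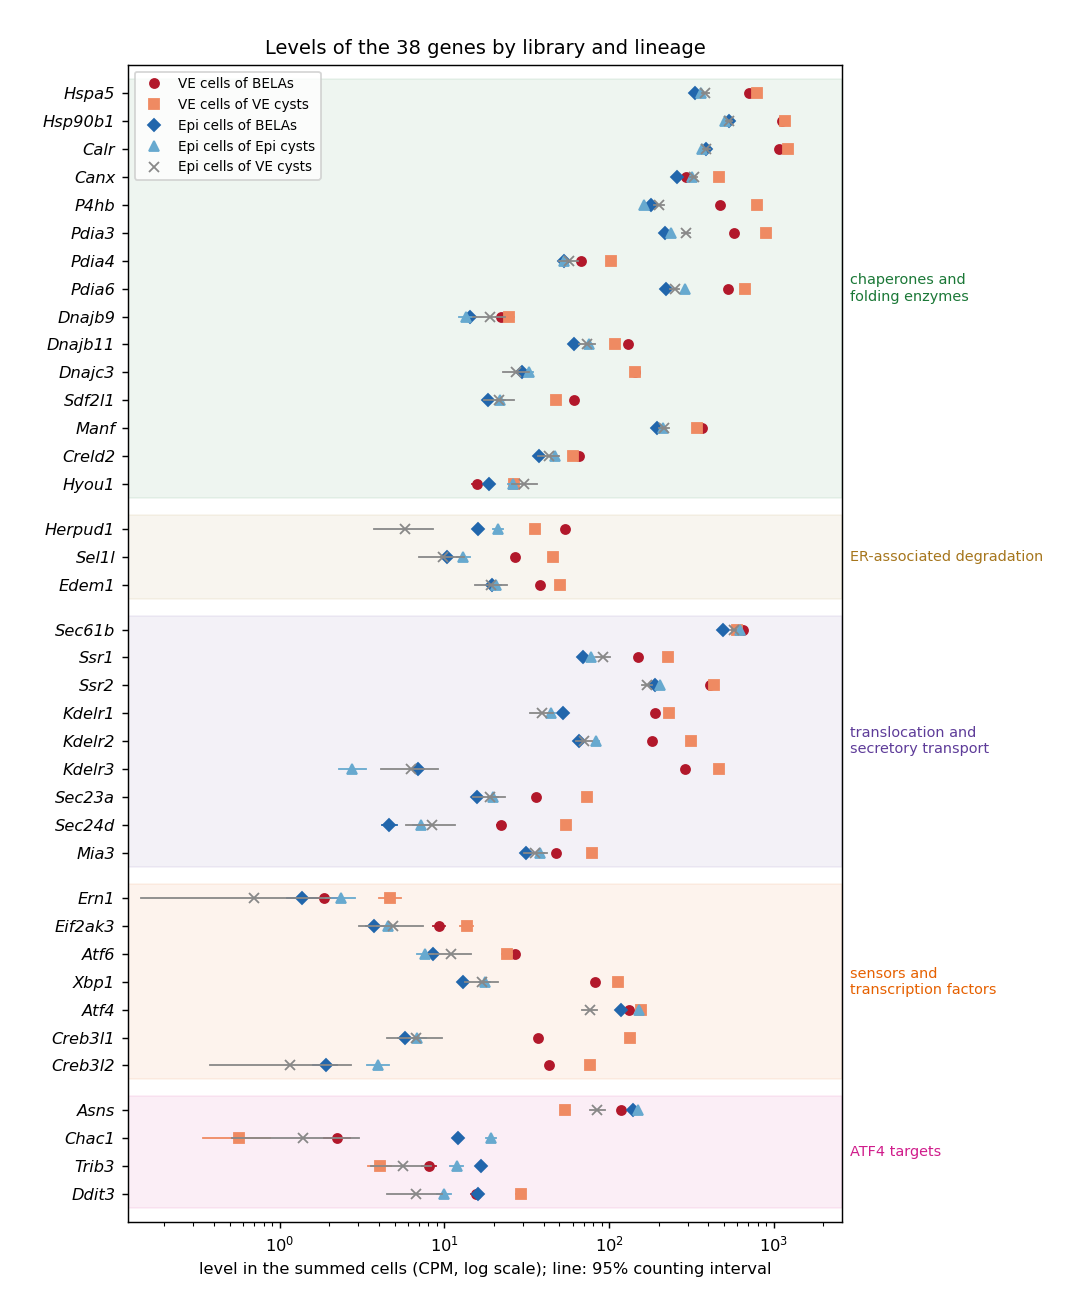
Level of each of the 38 genes (CPM, log scale) in the 5 groups of cells, arranged by role, with 95% counting intervals as lines. Circles and squares (VE cells) lie to the right of the other symbols for most genes down to Creb3l2 and lose that order in the ATF4 targets, where Chac1 is at 2.24 and 0.564 CPM in VE cells and reaches 19.1 CPM in Epi cysts.

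Among the 15 chaperones and folding enzymes, 9 were at least 2-fold higher in VE than in Epi cells of BELAs. BiP (Hspa5) was at 712 and 796 CPM in VE cells of BELAs and VE cysts, and in Epi cells it was at 332 CPM (BELAs), 362 CPM (Epi cysts) and 384 CPM (VE cysts). In that order of the 5 groups, Hsp90b1 was at 1121, 1175, 538, 503 and 537 CPM. Calr, a calcium-binding lectin chaperone, was at 1081, 1224, 388, 368 and 389 CPM. Each VE level of these 3 genes was above every Epi level, and the log2 ratios within BELAs were 1.09, 1.05 and 1.47. The other lectin, Canx, did not separate the lineages in the same way: it was at 292, 467, 258, 319 and 326 CPM, so that VE cells of BELAs lay among the Epi groups.

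The disulfide isomerases P4hb, Pdia3 and Pdia6 also separated the lineages. P4hb, which is also the beta subunit of collagen prolyl 4-hydroxylase, was at 470.4, 787, 179, 162 and 201 CPM. Pdia3 was at 571, 899, 217, 238 and 295 CPM, and Pdia6 at 524, 669, 220.2, 288 and 249.6 CPM. The widest ratio of the group belonged to Dnajc3 (p58IPK), a BiP co-chaperone that also inhibits PERK: it was at 144 CPM in each of the 2 VE groups and at 29.8, 32.9 and 27.4 CPM in the Epi groups, a 4.83-fold difference within BELAs (4.61 to 5.07). Sdf2l1, a BiP cofactor, was at 61.2, 47.4, 18.4, 21.8 and 21.6 CPM. Dnajb11, another BiP co-chaperone, was at 129.9, 109, 60.8, 75.9 and 73.6 CPM. The other 6 did not reach 2-fold within BELAs, with log2 ratios of 0.17 for Canx, 0.32 for Pdia4, 0.48 for Dnajb9, 0.87 for Manf, 0.73 for Creld2 and -0.19 for Hyou1. Manf and Creld2 encode proteins that are induced by ER stress and can be secreted. Hyou1, a large HSP70-like ER chaperone, was the only gene among the 34 that was not above 0 in both libraries.

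Herpud1, a membrane organiser of the degradation complex, was at 53.8 and 35.7 CPM in the VE groups and at 16.0, 21.2 and 5.81 CPM in the Epi groups. Sel1l, the adaptor of the HRD1 ligase, was at 27.0, 45.6, 10.4, 13.1 and 9.75 CPM. Edem1, which marks misfolded glycoproteins, was at 38.2, 50.6, 19.5, 20.6 and 19.3 CPM. All VE levels were above all Epi levels for these genes, and Edem1 passed 2-fold in VE cysts (log2 ratio 1.20) but not in BELAs (0.82).

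The strongest lineage difference among the 38 was in a KDEL receptor. Kdelr3 was at 289.7 CPM (285 to 294) in VE cells of BELAs and 467 CPM (460.0 to 474) in VE cells of VE cysts, and at 6.88, 2.76 and 6.27 CPM in the Epi groups. That was 42.1-fold (38.5 to 46.1) higher in VE cells within BELAs and 74.5-fold (51.2 to 113) higher within VE cysts. At an equal depth of 40000 UMIs per cell, Kdelr3 had a UMI in 509 of 514 VE cells of BELAs, 20.2% of 801 Epi cells of BELAs and 9.80% of 592 Epi cells of Epi cysts, a library with almost no VE cells; without thinning the shares in these 3 groups were 99.3%, 33.1% and 14.8%. Sparc, an endoderm-rich gene that had no part in the lineage call, was at 104 CPM in Epi cells of BELAs, 59.3 CPM in those of Epi cysts and 63.4 CPM in those of VE cysts. Whether the low Kdelr3 counts came from free RNA, doublets or the Epi cells themselves was not tested. In the 712 Epi cells of BELAs with the larger marker sum at least 10 times the smaller plus 1, Kdelr3 was at 5.18 CPM.

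Its paralogs showed smaller differences in the same direction. Kdelr1 was at 189 and 233 CPM in VE cells and at 52.6, 44.6 and 39.0 CPM in Epi cells. Kdelr2 was at 181 and 313 CPM in VE cells and at 65.8, 83.9 and 70.4 CPM in Epi cells. The translocon-associated subunits Ssr1 (149, 227, 69.5, 78.1 and 92.0 CPM) and Ssr2 (409, 433, 191, 204 and 169.5 CPM) passed 2-fold in both libraries. Sec61b, a subunit of the channel itself, did not, at 647, 602, 494, 620.0 and 571 CPM, with VE cells of VE cysts below Epi cells of Epi cysts. Of the export genes, the COPII coat subunit Sec24d was at 22.0, 55.1, 4.65, 7.22 and 8.36 CPM, its partner Sec23a at 36.2, 73.5, 15.7, 19.7 and 18.8 CPM, and Mia3 (TANGO1), which loads collagen into COPII carriers, at 47.4, 78.3, 31.2, 38.2 and 35.8 CPM. Within BELAs the log2 ratios of VE over Epi cells were 1.49, 0.99 and 0.54 for Sec24d, Sec23a and Mia3, and within VE cysts 2.17, 1.72 and 1.03.

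The sensors and factors differed in how far they separated the lineages. Xbp1, whose spliced form drives chaperone and secretory genes, was at 82.2 and 113 CPM in VE cells and at 13.0, 17.6 and 17.0 CPM in Epi cells, a 6.32-fold difference within BELAs (5.89 to 6.78). UMIs at the 3′ end do not tell the spliced from the unspliced transcript. The ER-resident factors Creb3l1 (OASIS) and Creb3l2 (BBF2H7), which drive secretion of matrix, were mainly counted in VE cells. Creb3l1 was at 37.0, 134, 5.80, 6.85 and 6.73 CPM over the 5 groups, and Creb3l2 at 43.1, 76.2, 1.90, 3.96 and 1.16 CPM. Atf6 was at 26.8, 24.0, 8.51, 7.61 and 10.9 CPM. The sensor kinase genes were low in all groups, with Ern1 between 0.697 and 4.71 CPM and Eif2ak3 between 3.76 and 13.7 CPM. Their log2 ratios within BELAs were 0.11 and 0.71, but adding 5 CPM shrinks the ratios of genes this low. With 1 CPM added, Eif2ak3 was at 1.11 within BELAs and 1.33 within VE cysts. Ern1 was then at 1.75 within VE cysts, from 3 UMIs in the Epi cells. Atf4 mRNA was at 131, 157, 119, 151 and 76.2 CPM, with a log2 ratio of 0.14 within BELAs and 0.99 within VE cysts, where it was compared with 48 Epi cells.

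**Figure D2:**
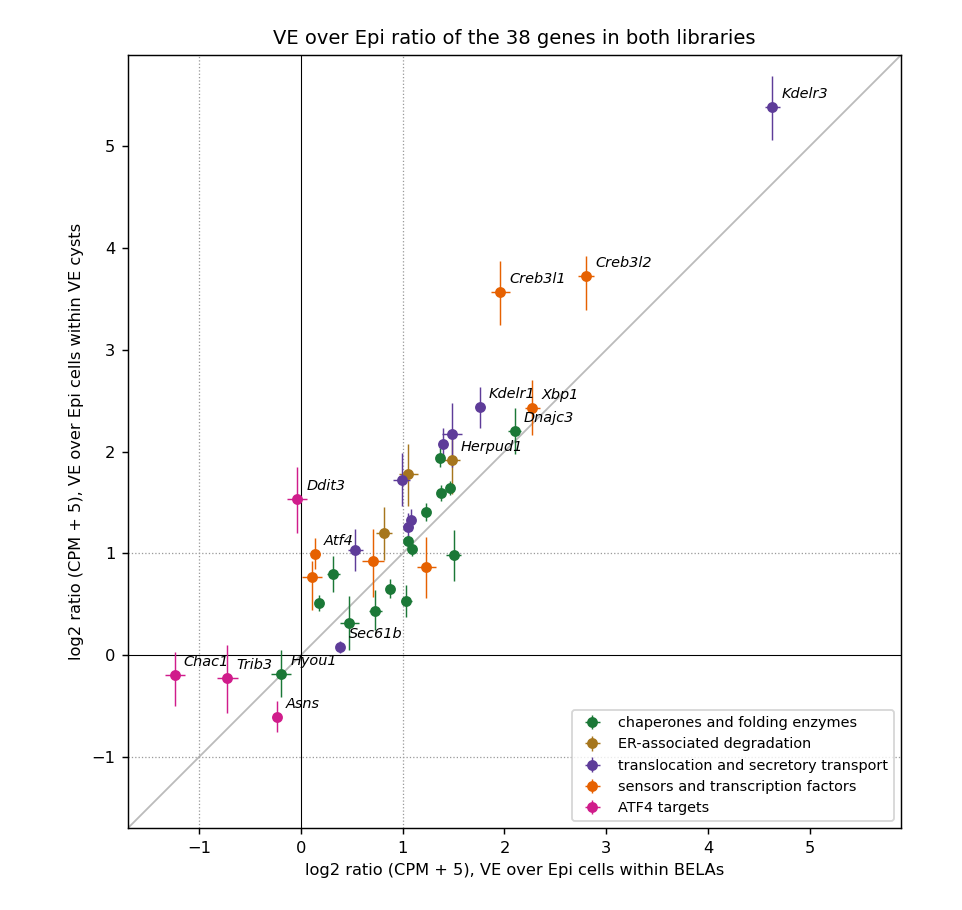
Log2 ratio of VE over Epi cells, with 5 CPM added, for the 38 genes within BELAs (x axis) and within VE cysts (y axis), with 95% counting intervals. Dotted lines mark 2-fold and the grey line marks equal ratios. Of the 38 points 29 lie above the grey line, as do 4741 of all 7903 genes, Kdelr3 lies farthest out at 4.63 and 5.39, and Asns, Chac1, Trib3 and Hyou1 lie below 0 in both libraries.

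Other genes of the same pathways, from lists drawn up by function with earlier results of these data known, were counted in the same way. Of all 7903 genes, 15.2% were at least 2-fold higher in VE than in Epi cells of BELAs and 8.33% lower. Of 25 further ER folding and degradation genes, 14 were at least 2-fold higher in VE cells of BELAs and 0 lower, with a median log2 ratio of 1.10; the largest were the isomerase Pdia5 (2.13), the BiP co-chaperone Dnajc10 (1.72), the retrotranslocation factor Derl1 (1.65), the selenoprotein Selenos (1.52), the oligosaccharyltransferase subunit Stt3a (1.49) and Derl2 (1.35). Of 30 further translocation and transport genes, 11 were higher and 0 lower, with a median of 0.86, led by Tango2 (1.97), the signal peptidase subunit Sec11c (1.72), the coat subunit Sec24a (1.54), the cargo receptor Surf4 (1.52), the translocating chain protein Tram1 (1.42) and Tmed10 (1.40). Of 9 heat shock genes of the cytosol and mitochondria, Bag3 was higher (1.10) and Hsp90aa1 lower (1798 against 3606 CPM), and the median was -0.13.

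Per cell, the chaperone sum varied more among VE than among Epi cells. Shallower cells were left out of the equal-depth values, 28 and 104 of the VE cells of BELAs and VE cysts and 67, 64 and 4 of the Epi cells of BELAs, Epi cysts and the VE cyst library. At 40000 UMIs per cell, the 15 genes summed to 44 UMIs in the lowest, 222 in the median and 541 in the highest of 514 VE cells of BELAs, and to 32, 99 and 524 UMIs in 801 Epi cells of BELAs. In VE cells of VE cysts the lowest, median and highest sums were 70, 254 and 691 UMIs over 473 cells. Among Epi cells of BELAs, 0.499% reached the VE median, while 11.3% of VE cells were at or below the Epi median. For the 9 transport genes the medians were 79 and 37 UMIs, 0 of 801 Epi cells reached the VE median, and 1.56% of VE cells were at or below the Epi median. Across VE cells the chaperone and transport sums went together, with Spearman's rho of 0.62 over 514 cells of BELAs and 0.42 over 473 cells of VE cysts, whereas rho was 0.08 over 801 Epi cells of BELAs. Chaperone and ATF4 target sums were not related in this way, with rho of -0.13, 0.05 and 0.05 in those 3 groups. Cells within a group share a library and a fixed depth, so these values are descriptions. The variance over mean of the transport sum was 1.61 in Epi cells of BELAs, against 4.97 and 3.93 in VE cells of BELAs and VE cysts. Counting noise made up more of that sum in the Epi cells, so its rho values are not directly comparable between lineages.

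**Figure D3:**
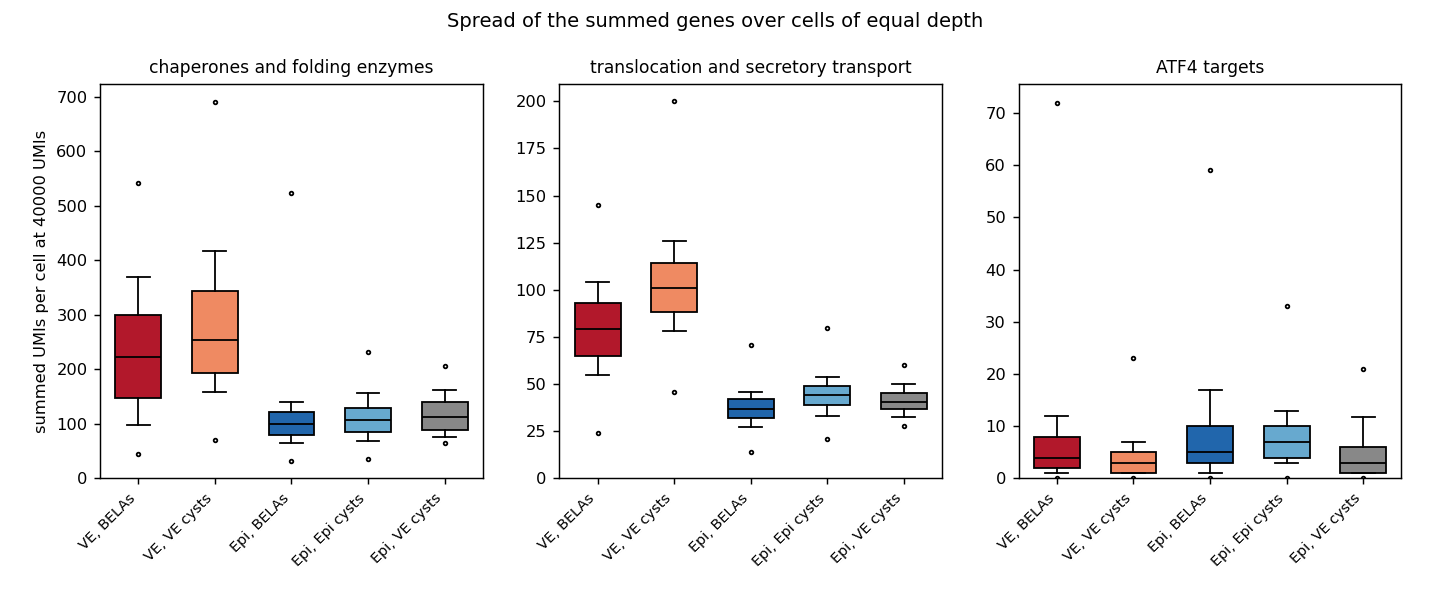
Summed UMIs per cell after each cell was thinned to 40000 UMIs, for the chaperones, the transport genes and the ATF4 targets in the 5 groups. Boxes span the quartiles with the median as a line, whiskers the 10th to 90th percentiles, and dots the lowest and highest cell; the median chaperone sum is 222 and 254 in VE cells and 99, 106.5 and 113 in Epi cells, while that of the ATF4 targets is 4 and 3 in VE cells and 5, 7 and 3 in Epi cells.

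The ATF4 targets did not follow the folding genes, nor did they follow each other. Asns, which makes asparagine, was at 118 CPM (115 to 121) in VE cells of BELAs, 54.1 CPM (51.7 to 56.6) in VE cells of VE cysts, and in Epi cells at 139.6 CPM (BELAs), 149.9 CPM (Epi cysts) and 85.0 CPM (VE cysts). Chac1, which degrades glutathione, was at 2.24 CPM (1.86 to 2.67) and 0.564 CPM (0.344 to 0.870) in VE cells, and at 12.1, 19.1 and 1.39 CPM in Epi cells, the last from 6 UMIs. Trib3, a pseudokinase induced by ATF4 and CHOP, was at 8.07 and 4.06 CPM in VE cells and at 16.6, 11.9 and 5.57 CPM in Epi cells. For these 3 genes the 2 lowest levels were those of the VE cyst library, although the interval of its few Epi cells reached that of VE cells of BELAs for Chac1 and Trib3. Ddit3, which encodes the pro-apoptotic factor CHOP, had another order: it was at 15.6 CPM (14.5 to 16.6) in VE cells of BELAs, highest at 29.0 CPM (27.3 to 30.9) in VE cells of VE cysts, and at 16.0, 9.96 and 6.73 CPM in Epi cells. The symbol Ddit3 stands for 2 overlapping gene IDs on chromosome 10 that share 105 exonic bases. The shorter ID had 0 UMIs in all groups. Reads from the shared bases could have been lost to both, but 0 of these bases lie in the last 500 exonic bases of the longer ID.

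Within BELAs the log2 ratios of VE over Epi cells were -0.24 for Asns, -1.24 for Chac1, -0.72 for Trib3 and -0.03 for Ddit3, and within VE cysts -0.61, -0.20, -0.22 and 1.54. Ddit3 thus passed 2-fold in VE cysts and not in BELAs, and with 20 CPM added it was at 0.87 in VE cysts. The 2 Epi groups of BELAs and VE cysts also differed: Epi cells of VE cysts had Chac1 at a log2 ratio of -1.42 and Trib3 at -1.03 to those of BELAs, 2 of 38 genes at least 2-fold lower against 0.633% of genes, and 0 higher against 0.468%. Asns was at -0.68 and Ddit3 at -0.84 in that comparison, so all 4 were lower, from 48 cells. The median of the chaperones was 0.18. Trib3 rested on 24 UMIs in Epi cells of VE cysts and was at -0.70 at equal depth and -0.94 under a stricter lineage margin. Ddit3 passed 2-fold at equal depth (-1.02). With 20 CPM added, Chac1 was at -0.59 and Trib3 at -0.52.

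**Figure D4:**
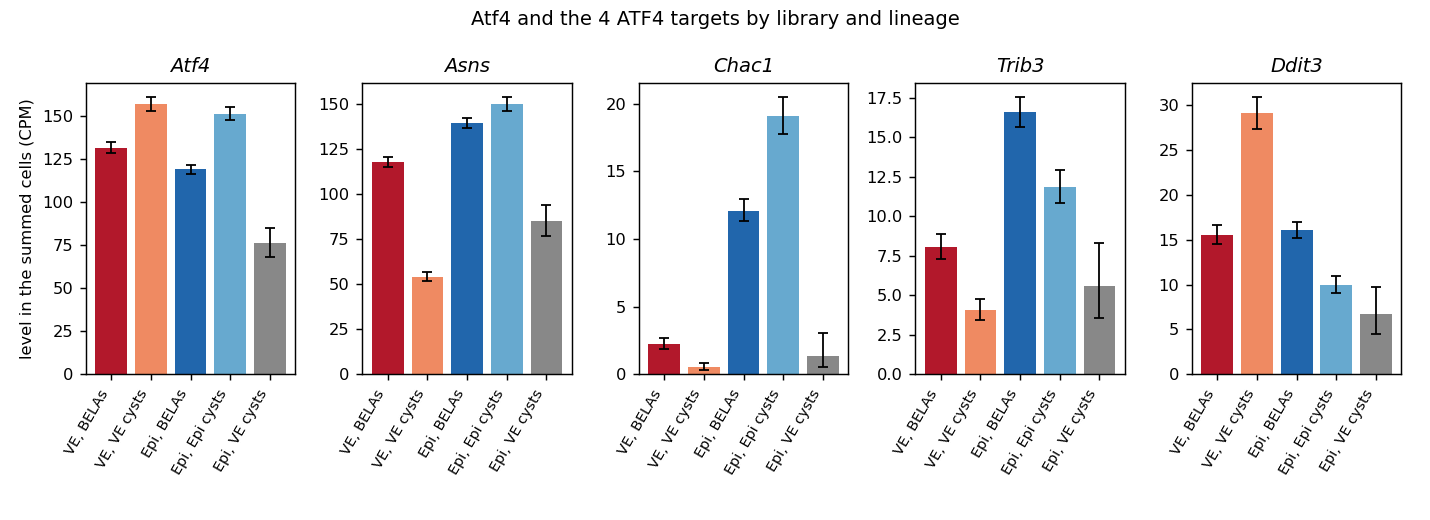
Levels (CPM, linear axes from 0, each gene on its own scale) of Atf4 and the 4 ATF4 targets in the 5 groups, with 95% counting intervals. Asns has its lowest bar in VE cells of VE cysts at 54.1 CPM, where Ddit3 has its highest at 29.0 CPM.

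A few cells carried much of the count of the low targets. At equal depth, Chac1 had a UMI in 26 of 514 VE cells and 159 of 801 Epi cells of BELAs (5.06% and 19.9%; 8.49% and 28.3% without thinning) and in 183 of 592 Epi cells of Epi cysts (30.9%; 38.4%). The tenth of cells with the highest counts held 71.7% of the Ddit3 UMIs of Epi cells of BELAs and 39.3% of those of VE cells of VE cysts, and 33.5% and 37.4% of the Asns UMIs. The single highest VE cell of BELAs had 70 Asns UMIs, against a median of 4. Summed over 38 measured further ATF4 targets, the level went with Asns across Epi cells (rho of 0.64 over 801 cells of BELAs and 0.50 over 592 of Epi cysts) and less across VE cells (0.14 over 514 of BELAs and 0.04 over 473 of VE cysts), and the same sum went with Atf4 mRNA at rho of 0.63, 0.45, 0.20 and 0.02. Ddit3 had rho of at most 0.18 with that sum in these 4 groups.

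Those 38 further ATF4 targets had members past 2-fold in both directions between lineages and more below 0 than above. Within BELAs 5 were at least 2-fold higher in VE cells, against 15.2% of all genes, and 8 lower, against 8.33%. The median was -0.36, and 26 of the 38 were below 0, against 52.4% of all genes. The lower ones were led by the cationic amino acid transporter Slc7a3 (-2.64), the mTORC1 inhibitor Ddit4 (-2.34), Cth of cysteine synthesis (-2.02) and the mitochondrial folate enzyme Mthfd2 (-1.97). The higher ones were led by another cationic transporter, Slc7a1 (1.86), and the stress factor Atf3 (1.73). Slc7a3 was at 6.14 and 1.13 CPM in VE cells and between 64.6 and 79.3 CPM in Epi cells.

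Comparison of VE cells between BELAs and VE cysts gave ratios below 0 for 26 of the 34 genes other than ATF4 targets, against 58.8% of the 7903 genes, and above 0 for 3 of the 4 ATF4 targets. Asns was at least 2-fold higher (log2 ratio 1.05), 1 of 38 genes against 1.58% of the 7903. Creb3l1 (-1.73) and Sec24d (-1.15) were at least 2-fold lower, 2 of 38 against 2.62%. These counts are near the background. The medians were -0.16 for the chaperones, -0.36 for degradation, -0.67 for transport, -0.44 for sensors and factors and 0.45 for the ATF4 targets, beside -0.09 for all genes. Within the chaperones, P4hb (-0.74), Canx (-0.67) and Pdia3 (-0.65) were lower in BELAs, while Sdf2l1 (0.34) and Dnajb11 (0.25) were higher, and Herpud1 was at 0.53. Within transport, Kdelr2 (-0.77) and Kdelr3 (-0.68) were lower, and Ssr2 (-0.08) and Sec61b (0.10) were close to 0. With 20 CPM added, at most 5% mitochondrial UMIs, or the stricter lineage margin, Asns was at 0.89, 0.93 and 1.00, the last short of 2-fold before rounding. Sec24d was at -0.84 with 20 CPM added, and Sec23a, at -0.93 in the main values, passed 2-fold with 1 CPM added and at most 5% mitochondrial UMIs (-1.06).

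**Figure D5:**
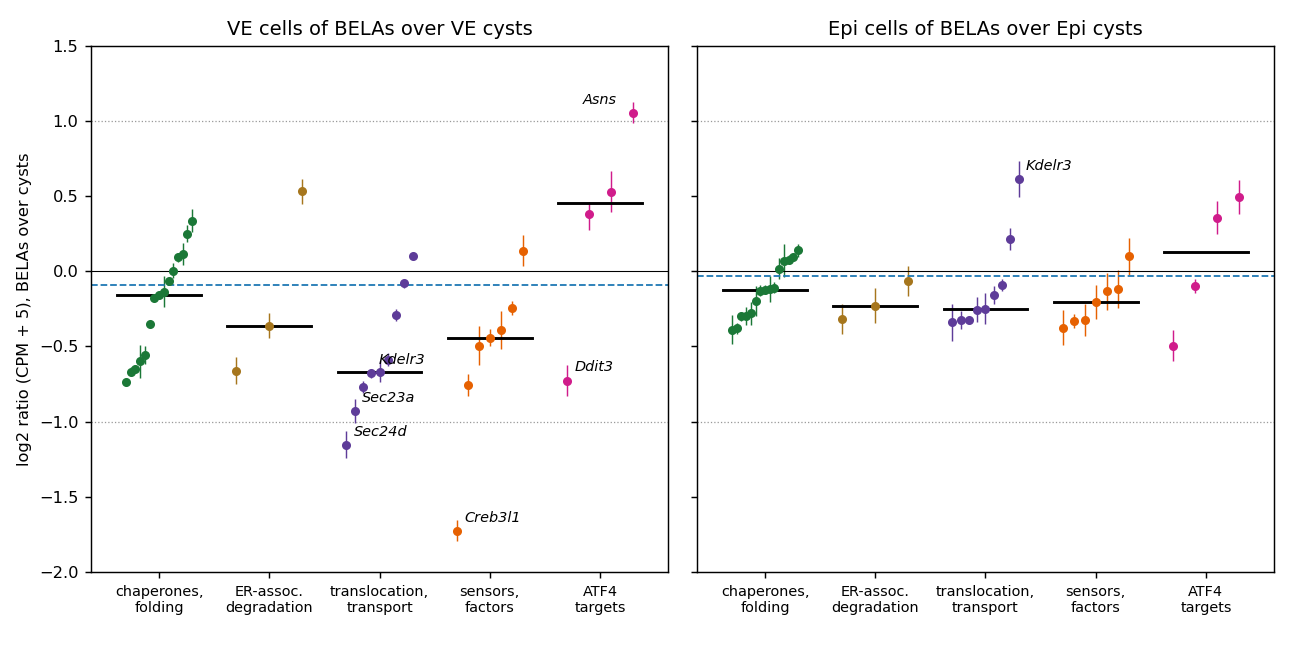
Log2 ratio of BELAs over cysts, with 5 CPM added, for VE cells (left) and Epi cells (right), by role. Points are genes with 95% counting intervals, black bars the group medians (-0.67 for transport and 0.45 for ATF4 targets in VE cells), dotted lines 2-fold and the dashed line the median of all 7903 genes.

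Genes of parietal endoderm, the migratory endoderm that lays down Reichert's membrane, were also lower in VE cells of BELAs, as were Creb3l1, Sec24d and Kdelr3. In VE cells of BELAs, 8 of the 10 listed were lower than in those of VE cysts by 2-fold or more, against 2.62% of all 7903 genes. Their median was -1.35, and their sum was 1.03% against 2.42% of UMIs. Anterior visceral endoderm markers went the other way, with 4 of 5 at least 2-fold higher in BELAs, against 1.58% of all genes. None of the 10 was at 0 in either group, and Sparc alone was at 5233 against 12104 CPM. Across VE cells of BELAs and of VE cysts, rho with the parietal sum was 0.57 and 0.36 for Kdelr3 and 0.22 and 0.22 for Creb3l1, and for the chaperone sum 0.22 and -0.01. The part of parietal-type cells in the differences was not tested. Further ATF4 targets had a median of 0.25: Nupr1 (1.26) and the transporter subunit Slc3a2 (1.04) were higher in BELAs, and Psat1 of serine synthesis (-1.19) and the transaminase Gpt2 (-1.12) lower. No gene of the further folding and the further transport lists passed 2-fold, against 1.58% of all genes higher and 2.62% lower. The medians of these 2 lists were -0.32 and -0.26. VE cells of BELAs had 4.79% and those of VE cysts 5.45% mitochondrial UMIs at the median.

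In Epi cells the differences between BELAs and Epi cysts, which also differed in matrigel and in the doxycycline step, were small. None of the 38 genes was at least 2-fold higher in BELAs than in Epi cysts, against 1.13% of genes, and none lower, against 0.924%. The medians were -0.12 for the chaperones, -0.25 for transport and 0.13 for the ATF4 targets, beside -0.03 for all genes. The widest differences were in Kdelr3 (0.61), Chac1 (-0.49) and Ddit3 (0.49). In the further lists, the oxidase of the disulfide isomerases, Ero1l, had 58.3 CPM beside VE cells and 15.0 CPM in Epi cysts (log2 ratio 1.66), and Nupr1 had 23.6 and 7.39 CPM (1.21). These were the sole genes past 2-fold in the further folding and further ATF4 lists. The immediate early genes Egr1 (1.64) and Jun (1.38), which respond to handling among other things, were also at least 2-fold higher, 2 of 9 against 1.13% of genes.

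Markers of other kinds of cells had low sums, but a sum over a group cannot show a small population. In every group the blood and endothelial markers summed to at most 0.00103% of UMIs, neural markers to at most 0.00859%, fibroblast markers to at most 0.0185% and trophoblast markers, which include the keratin Krt8, to at most 0.0386%. Pdgfra gave 180 of the 185 CPM of fibroblast markers in VE cells of VE cysts. Hand1, a listed trophoblast marker, had 446 UMIs in Epi cells of BELAs, from 2.30% of them, and 1 UMI in those of Epi cysts. What kind of cells these were was not tested. The barcodes that were left out were 810 from BELAs, 256 from VE cysts and 419 from Epi cysts. Their levels were set against the kept cells of each library. In BELAs the log2 ratios of the listed genes ran from -1.03 (Manf) and -1.02 (Pdia6) to 0.47 (Hyou1) and 0.66 (Ddit3). Left-out BELA barcodes had a median of 6229 UMIs, against 82741.5 in the kept cells. The share of all genes is not given for this comparison, so the listed genes have no background here. Left-out barcodes were counted per library and not per lineage. The chaperone medians of left-out over kept barcodes were -0.64 (BELAs), -0.57 (VE cysts) and -0.28 (Epi cysts). The 65 of 514 VE cells of BELAs with an anterior visceral endoderm marker sum (Cer1, Sfrp1, Lhx1, Otx2 and Gsc) of at least 17 UMIs at equal depth, with 10 cells within 2 UMIs of that threshold, had Hspa5 at 381 against 763 CPM and Kdelr3 at 124 against 323 CPM in the other VE cells, and Asns at 249.6 against 109 CPM. The medians of that comparison were -0.79 for the chaperones, -0.49 for degradation, -0.32 for transport, -0.18 for sensors and factors and 0.27 for the ATF4 targets, but members went different ways: Ddit3 was at 8.08 against 17.1 CPM, and the log2 ratios of Sec61b, Sec23a, Mia3 and Creb3l1 were -0.02, 0.11, 0.13 and 0.33. Epi cyst cells with a UMI of T, 162 of 592, had a chaperone median of 0.07 and an ATF4 target median of -0.13 to those without.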

How the data were processed

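The deposited files hold UMI counts per gene and cell barcode, made by the authors with Cell Ranger 4.0.0 on mm10 from 10x Genomics 3′ v3.1 libraries, with no normalization. They hold 1 library per condition, so levels, ratios and exact intervals were computed and no test was run, and fixed sizes (2-fold with 5 CPM added) served in place of a call. Cells were filtered and named VE or Epi as in the report, and UMIs were summed per library and lineage (Python 3.11.15, numpy 2.4.6, scipy 1.17.1, pandas 2.3.3). Poisson intervals are given for levels, Clopper-Pearson intervals were computed for shares and conditional binomial intervals for folds. The ratio step was tested on simulated counts. No doublet caller was run; a stricter lineage margin was an alternative, under which 9 kept cells of VE cysts, 26 of Epi cysts and 185 of BELAs were dropped. Values in all groups are given for the ATF4 targets, for genes past 2-fold in any comparison and for the 2 genes with the highest level in each role, and at most 6 genes are named per further list. Of 39 further ATF4 targets, 38 were in the files. The genes, lists and markers were chosen with earlier results of these data known. Gene positions are from GENCODE vM21 (GRCm38), and the last 500 exonic bases of Manf share 14 bases with Rbm15b.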

Additional observations from a re-analysis of the deposited data

Results flagged for a closer look

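For 3 genes the difference between BELAs and cysts had opposite directions in VE and in Epi cells. The log2 ratio of BELAs over cysts was -0.68 in VE and 0.61 in Epi cells for Kdelr3, 0.38 and -0.49 for Chac1, and -0.73 and 0.49 for Ddit3. With a single library per condition the differences were not tested, and some of the levels behind them were low, with Kdelr3 at 6.88 and 2.76 CPM in Epi cells and Chac1 at 2.24 and 0.564 CPM in VE cells.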

How the results depend on the processing

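No paired analysis was possible because each condition is 1 library. Medians were followed for the chaperones, transport and ATF4 targets only. They were followed in VE and in Epi cells of BELAs over cysts, and in VE over Epi cells within BELAs. None of these medians changed direction under the alternatives, but some counts of genes past 2-fold fell to 0 and 1 rose from 0. Of 161 values, 32 moved beyond counting error or by over 1.5 times. The cause was not tested. For VE cells of BELAs over VE cysts, the chaperone median was -0.21 at most 5% mitochondrial UMIs, -0.07 centred on all genes and -0.12 under the lineage margin; that of transport was -0.55 with 20 CPM added and -0.58 centred; that of ATF4 targets was 0.95 with 1 CPM added and 0.17 with 20; genes 2-fold higher were 2 with 1 CPM and 0 with 20 CPM, at most 5% mitochondrial UMIs or the margin, and 1 was lower with 20 CPM. For Epi cells of BELAs over Epi cysts, the chaperone median was -0.09 centred, that of transport -0.14 with 20 CPM, that of ATF4 targets 0.36 without genes under 10 CPM (Chac1), and 1 gene was higher with 1 CPM (Kdelr3). For VE over Epi cells within BELAs, the chaperone median was 1.03 with 20 CPM, 1.16 at most 5% mitochondrial, 1.09 centred and 1.10 under the margin; that of transport was 1.15 with 1 CPM, 0.92 with 20, 1.16 at most 5% mitochondrial and 1.12 centred; that of ATF4 targets was -0.60 with 1 CPM, -0.30 with 20, -0.37 at most 5% mitochondrial and -0.24 without genes under 10 CPM, and 0 genes were lower with 20 CPM. Genes at least 2-fold higher in VE than in Epi cells ran from 16 to 23 within BELAs and from 19 to 27 within VE cysts. By the mean of the cells' own CPM, Hspa5 and Hsp90b1 were at 0.92 and 0.99 within VE cysts, short of 2-fold. The 18 genes past 2-fold in both libraries rest on the main values. For Epi cells of VE cysts over BELAs, 4 genes were lower with 1 CPM, 0 with 20 and 1 under the margin. Counting error alone is covered by any interval here.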
